A study of Arabidopsis thaliana with 33 samples.

Results

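Suberin is the lipid and phenolic polymer that root cells lay down on the inside of their primary walls as the tissue matures, most of all in the endodermis, the layer around the vascular cylinder. Its aliphatic part is built from fatty acids in the endoplasmic reticulum, exported to the wall and joined there by esterases, while acyltransferases attach hydroxycinnamic acids to fatty alcohols and hydroxy acids. In a young root the barrier is absent from the dividing tip and appears in older tissue, at first as patches and then as a continuous sleeve.

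The 3 genes described here are FACT (AT5G63560), AT1G74460 and AT2G23540, each measured by the only probe set that the platform annotation gives to that gene alone, out of 22746 probe sets on the array. FACT encodes a fatty alcohol:caffeoyl-CoA caffeoyl transferase, which makes the alkyl caffeates of the waxes that accompany suberin. AT1G74460 and AT2G23540 belong to the GDSL-type esterase/lipase family, some of whose members act on the suberin polyester. That family membership is background knowledge, since the gene tables used here give only locus codes for both. Of 30 suberin genes listed for comparison, the annotation gave 4 a probe set of their own, these 3 and AT5G37690, also a GDSL-type esterase/lipase gene. Genes with such a probe set are called measured below. The annotation named no gene for 8730 probe sets, and whether other listed genes lie among them was not examined. The fatty acid elongation, hydroxylation and reduction genes, the exporters and the transcription factors of that list were not analysed here.

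The arrays came from Arabidopsis thaliana seedling roots on standard medium, with no treatment, and the labels name no mutant and no accession. Along each of 2 single roots at 7 days, 12 consecutive positions were each hybridised to an array, 6 in the meristematic zone, 2 in the elongation zone and 4 in the maturation zone, the last of about 500 µm each. Cells of 8 GFP reporter lines, freed as protoplasts and sorted at 5 to 6 days, gave 1 set of values per line. Each is labelled replicate 1, the design text speaks of 2 to 3 replicates, and whether a value joins several arrays is not stated. COBL9 marks hair cells, JO121 the xylem pole pericycle and S17 the phloem pole pericycle. SUC2 marks phloem companion cells, S32 protophloem with metaphloem, and S4 the xylem of the meristematic zone. RM1000 marks initials of lateral root primordia, and J2501 takes in pericycle, xylem and phloem together, so no line stands for the endodermis. Values are the deposited linear intensities, whose array medians lay between 0.79 and 1.04, so an intensity near 1 is that of a middling probe set. The replicate is the root (n = 2), and sections cut from 1 root are not independent samples. For whole zones the p-values measure how far the differences between zones varied between these 2 roots. That spread was pooled over all 3 zones and moderated with all probe sets, so an array of one zone also affects comparisons of the others. The p-values for single sections, or groups of sections within a zone, pool the spread left after a root effect over all 12 positions. They treat sections of 1 root as independent beyond a root effect, so they do not measure the spread between roots at the sections compared. The number of arrays limits the precision, and in such bulk sections fewer cells of a type and less RNA per cell cannot be told apart.

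At most positions the array of root 1 had a narrower spread of values than that of root 2. The SD of log2 intensity was 0.426 on the array of elongation section 2 of root 1 and 0.634 to 1.45 on the other section arrays. Its description names root 2, but its title belongs to the naming series of root 1, where it was counted. In it FACT and AT1G74460 were at 0.874 and AT2G23540 at 0.979. Few cell type markers had a probe set of their own in the annotation. These were 1 of 10 for endodermis, 2 of 6 for hair cells, 2 of 4 for pericycle, 1 of 1 for cortex and 0 of 5 and 0 of 6 for phloem and xylem.

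AT1G74460 was near the middle of the array, or below it, from the tip to the start of the maturation zone and rose steeply after that. In the 12 meristematic arrays its intensity was 0.466 at the lowest, 0.782 at the median and 0.871 at the highest. In the elongation sections it was 0.691 and 0.874 in root 1 and 0.622 and 0.692 in root 2. None of these 16 arrays reached 1.

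Along the maturation zone of root 1 the intensity of AT1G74460 was 0.844, 1.62, 17.8 and 7.96 in sections 1 to 4. In root 2 it was 0.616, 1.69, 7.06 and 17.4. Sections 3 and 4 of both roots lay above every younger section, and section 2 lay between. By intensity the highest section was section 3 in root 1 and section 4 in root 2, so by that measure the roots disagreed on whether the level still climbed. By the share of probe sets lower on the same array, sections 3 and 4 were at 99.2% and 99.1% in root 1. In root 2 they were at 96.0% and 98.6%. Against the mean of the 8 meristematic and elongation sections of the same root, the peak was 21.8-fold higher in root 1 and 27.7-fold higher in root 2. No detection call was used here, so whether the younger sections were above background was not tested, and these and the other folds are ratios of deposited intensities.

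AT2G23540 was likewise low until maturation section 3. Its 12 meristematic arrays ran from 0.382 through a median of 0.588 to 0.812, and its elongation sections held 0.712 and 0.979 in root 1 and 0.501 and 0.84 in root 2. In maturation sections 1 to 4 root 1 gave 0.813, 0.772, 9.71 and 8.63, and root 2 gave 0.552, 0.381, 2.54 and 17.2. Section 2 of root 2 was thus as low as the lowest meristematic section, and 2.07% of the probe sets on its array were lower. The next section already stood above all younger ones, by less in root 2 than in root 1. The peak was 14.7-fold over the mean of the 8 younger sections in root 1 and 30.9-fold in root 2, again as a ratio of intensities over younger values low on their arrays.

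FACT, the caffeoyl transferase gene, changed by smaller folds. It ran from 0.56 through a median of 0.752 to 0.863 in the 12 meristematic arrays and from 0.784 to 0.874 in the 4 elongation arrays. In maturation sections 1 to 4 it was 0.962, 1.51, 1.4 and 1.03 in root 1 and 0.956, 1.6, 1.87 and 1.44 in root 2. All 8 maturation arrays lay above all 16 younger ones. Its peak, in section 2 of root 1 and section 3 of root 2, was 1.88-fold and 2.71-fold over the mean of the younger sections of the same root.

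**Figure D1:**
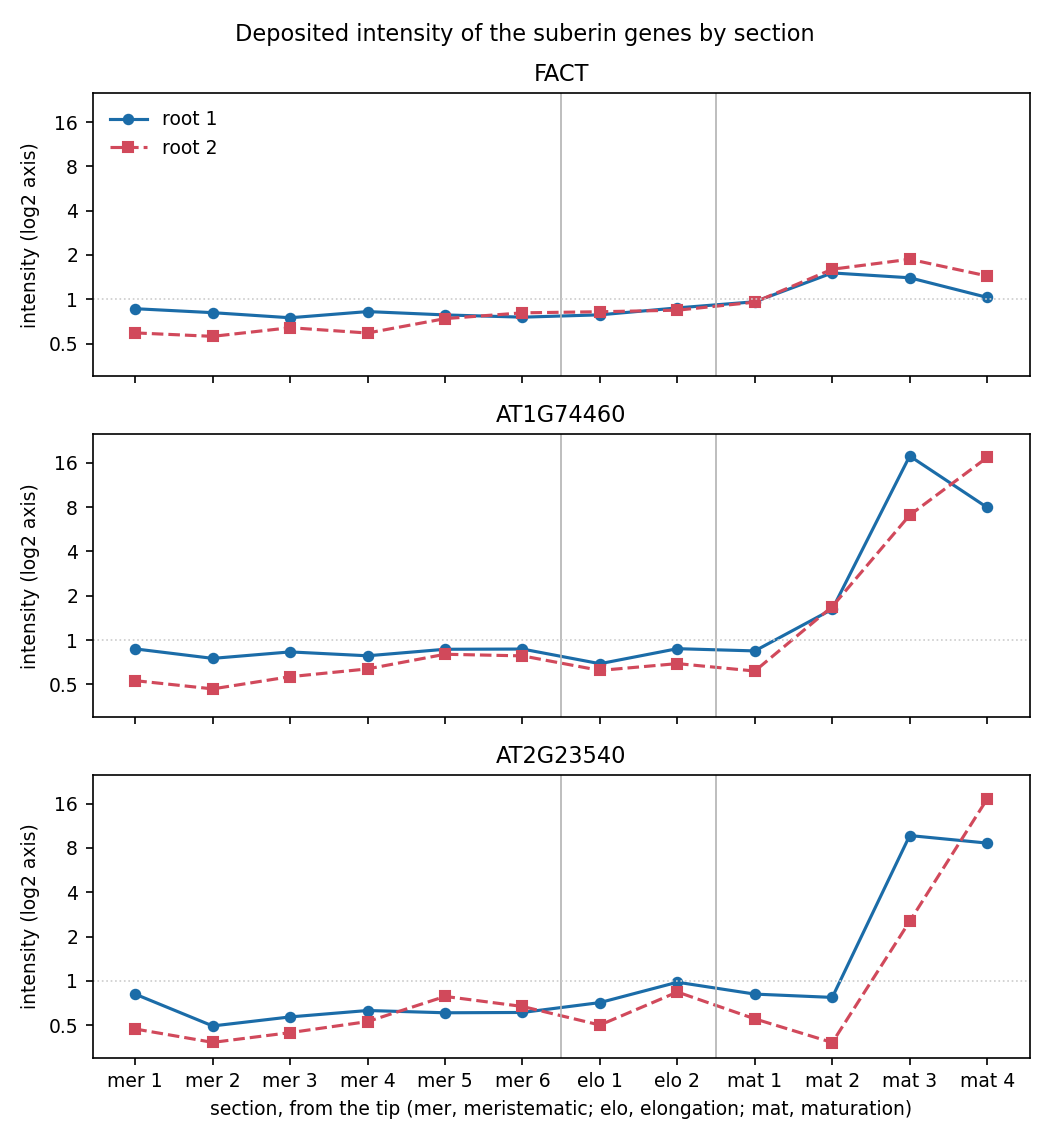
Deposited intensity (log2 axis) of FACT, AT1G74460 and AT2G23540 in the 12 sections from the tip to the oldest maturation section, 1 panel per gene, with root 1 as circles on a solid line and root 2 as squares on a dashed line; vertical lines separate the meristematic, elongation and maturation zones. AT1G74460 and AT2G23540 stay under 1 up to maturation section 1 and reach 7.06 to 17.8 and 2.54 to 17.2 in maturation sections 3 and 4, while FACT stays at or under 1.87.

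All 3 genes varied along the root. By limma's moderated F test over the 12 positions, with root as a block and p adjusted over all probe sets, F was 33.99 for AT1G74460 (adjusted p = 1.22e-05), 20.55 for AT2G23540 (adjusted p = 1.07e-04) and 6.97 for FACT (adjusted p = 0.00682). Of all probe sets 19.2% were called in this test. Without meristematic section 2 of root 2 that count fell from 4378 to 2570, and all 3 genes still passed without any single array.

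Ordered by the mean of both roots, AT1G74460 was highest in maturation sections 4 and 3, at log2 3.56 ± 0.80 and 3.49 ± 0.94 (SD, n = 2 roots), and these neighbours overlapped. Maturation section 2 followed at 0.73 ± 0.04 and overlapped neither section 3 above it nor the next position below. The other 9 positions lay between -0.26 and -0.76, and each overlapped its neighbour in the order. AT2G23540 had the same 2 positions at the top, at 3.61 ± 0.70 and 2.31 ± 1.37, again overlapping. Elongation section 2 was next at -0.14 ± 0.16 and lay clear of the 9 positions below, which ran from -0.53 to -1.20 with overlap between neighbours. For FACT the order was maturation section 3, 2, 4 and 1, then elongation section 2. Maturation section 3 overlapped both section 2 and section 4, section 1 overlapped no other position, and elongation section 2 overlapped meristematic section 1. From elongation section 1 downward every neighbour overlapped.

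Setting the older stretch of the maturation zone (sections 3 and 4) against the younger one (sections 1 and 2) separated the 3 genes. AT1G74460 rose 10.5-fold (log2 3.39 ± 0.267 SE, adjusted p = 6.74e-06 in the same limma fit), by 3.35 in root 1 and 3.44 in root 2. AT2G23540 rose 12.9-fold (log2 3.69 ± 0.327 SE, adjusted p = 2.45e-05), by 3.53 and 3.85. FACT stood at log2 0.20 ± 0.171 SE (adjusted p = 1), with -0.01 in root 1 and 0.41 in root 2, and did not pass. Thus 2 of 3 genes were called higher, against 0.413% of all probe sets called higher and 0.136% lower, and in size of change AT2G23540 was number 2 and AT1G74460 number 4 of the 22746.

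Those calls did not rest on 1 array. With each of the 24 section arrays left out in turn, the adjusted p stayed at or below 1.24e-04 for AT1G74460 and 3.51e-04 for AT2G23540. The log2 changes ran from 3.00 to 3.78 and from 3.26 to 4.12. The count over all probe sets, 125, was 48 without maturation section 3 of root 1 and 317 without section 4 of that root. It was 65 without section 2 and 204 without section 1 of root 1, and 56, 67, 75 and 77 without sections 1, 2, 3 and 4 of root 2.

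Of the 11 steps between neighbouring positions, 1 was called for any of the 3 genes, that from maturation section 2 to 3. AT2G23540 rose by log2 3.19 ± 0.462 SE and AT1G74460 by 2.76 ± 0.378 SE, both with a limma adjusted p = 0.0189. They were the largest and the next largest rise of all probe sets at that step, where 0.0352% were called higher and 0.00879% lower. FACT stood at 0.06 ± 0.241 there (adjusted p = 1). The step into section 2 was log2 1.20 ± 0.378 for AT1G74460, 0.70 ± 0.241 for FACT and -0.30 ± 0.462 for AT2G23540, and none passed (adjusted p = 1 for each, and 0.0396% of probe sets called higher). The step from section 3 to 4 was 1.30 ± 0.462 for AT2G23540, 0.07 ± 0.378 for AT1G74460 and -0.41 ± 0.241 for FACT, none past the threshold, with 0.0308% of probe sets called higher and 0.0132% lower. At the 8 younger steps no call was made for these genes. There the share of probe sets called was 0.0484% higher and 0.255% lower at the first step, 0.0044% and 0.0132% at the next, 0.0264% higher into the elongation zone, 0.136% lower within it, 0.0396% higher into the maturation zone, and 0 at the others.

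The calls at the step from section 2 to 3 were less firm than the comparison of the 2 stretches. For AT1G74460 the adjusted p was 0.422 without maturation section 2 of root 1, 0.52 without section 3 of root 1 and 0.0914 without section 2 of root 2. For AT2G23540 it was 0.216, 0.52 and 0.339 in the same order. The log2 change stayed between 2.20 and 3.32 for AT1G74460 and between 2.34 and 4.05 for AT2G23540. With no replicate block the adjusted p was 0.053 and 0.055, and with an offset of 1 added before log2 it was 0.11 for AT2G23540.

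**Figure D2:**
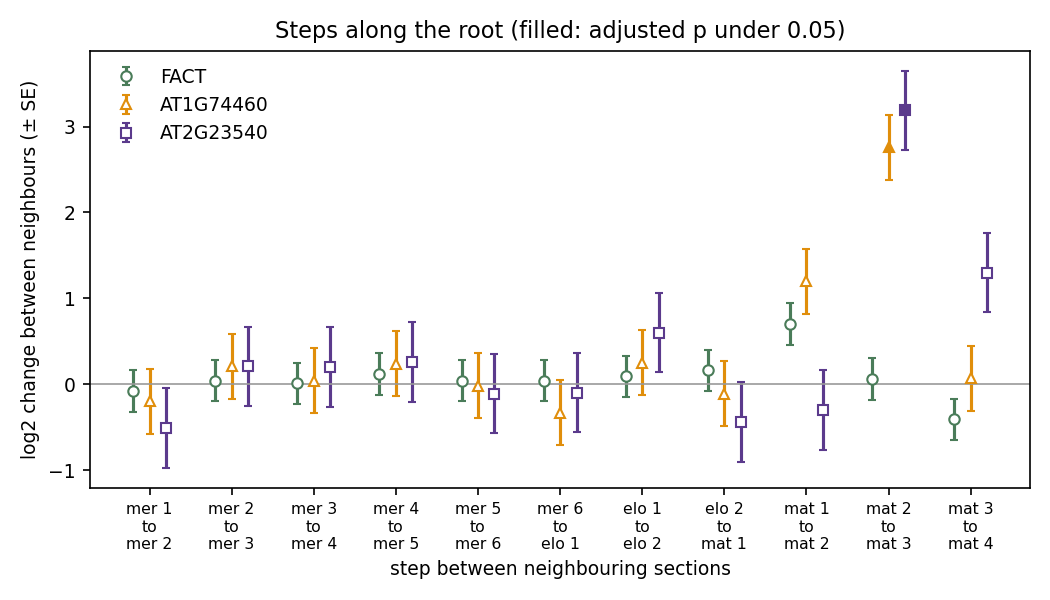
Log2 change (± SE, limma) of each gene at the 11 steps between neighbouring sections, from the tip on the left to the oldest maturation section on the right (mer, meristematic; elo, elongation; mat, maturation); filled symbols passed an adjusted p of 0.05. The only filled symbols are AT1G74460 at 2.76 and AT2G23540 at 3.19, at the step from maturation section 2 to 3.

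Each maturation section was also set against the younger sections of its own root. In maturation section 1, FACT stood at log2 0.26 in root 1 and 0.47 in root 2, and AT1G74460 and AT2G23540 lay between -0.02 and 0.30. In maturation section 2, FACT stood at log2 0.91 in root 1 and 1.21 in root 2 over the mean of the 8 younger sections of its root, whose own SD was 0.08 and 0.24. AT1G74460 stood there at 0.99 and 1.43 (SD of the younger sections 0.13 and 0.27). AT2G23540 was at 0.22 and -0.55 in section 2 (SD 0.31 and 0.41), and at 3.87 and 2.19 in section 3. Halfway to its peak on the log2 scale was passed in section 2 by FACT in both roots, in section 3 by AT1G74460 in both roots, and in section 3 of root 1 and section 4 of root 2 by AT2G23540. Differences in onset between the genes were not tested.

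AT5G37690, the other measured gene of the suberin list, rose at the last step. In maturation sections 1 to 4 its intensity was 0.974, 0.844, 1.78 and 13.1 in root 1 and 0.703, 0.861, 0.981 and 7.68 in root 2. Section 4 thus stood far above section 3 in both roots. From section 3 to 4 it rose by log2 2.92 ± 0.202 SE (limma adjusted p = 1.05e-05), the largest rise of all probe sets at that step. It passed without any single array (highest adjusted p = 6.34e-04). Between the younger and the older stretch it rose by 2.12 ± 0.143 (adjusted p = 1.27e-06). All 3 measured GDSL-type genes of the list, 2 of them described above, were called higher in the older stretch, as were 0.413% of all probe sets. Their median log2 change was 3.39, the value of AT1G74460 itself, against 0.008 over all probe sets. The list was chosen with earlier results of these data known, so these 3 genes do not stand for the family.

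**Figure D3:**
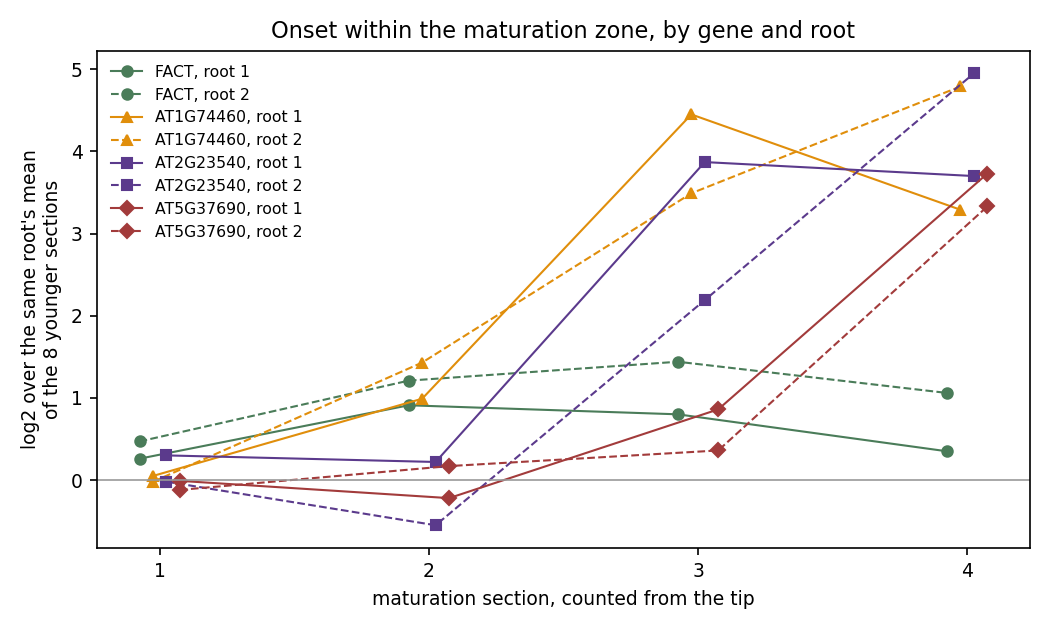
Log2 intensity in maturation sections 1 to 4, minus the mean of the 8 younger sections of the same root, for FACT, AT1G74460, AT2G23540 and AT5G37690, with root 1 on solid and root 2 on dashed lines. FACT is already at 0.91 and 1.21 in section 2 and ends at 0.35 and 1.06, AT1G74460 and AT2G23540 climb to between 2.19 and 4.95 in sections 3 and 4, and AT5G37690 reaches 3.73 and 3.33 in section 4 after 0.86 and 0.36 in section 3.

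Averaged over whole zones, the maturation zone exceeded the meristematic zone for all 3 genes. AT1G74460 averaged log2 -0.48 ± 0.30 (SD, n = 2 roots) in the meristematic and 1.82 ± 0.11 in the maturation zone, 4.96-fold higher (log2 2.31 ± 0.125 SE, limma adjusted p = 0.00395). AT2G23540 went from -0.81 ± 0.15 to 1.12 ± 0.45, 3.80-fold higher (log2 1.93 ± 0.144 SE, adjusted p = 0.00571). FACT went from -0.48 ± 0.21 to 0.39 ± 0.17, 1.82-fold higher (log2 0.86 ± 0.162 SE, adjusted p = 0.0321). Of all probe sets 6.66% were called higher and 7.07% lower in this comparison, 3122 in all.

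For AT1G74460 the call held with any single section array left out. For AT2G23540 it was lost without maturation section 4 of root 2 (log2 1.37, adjusted p = 0.0849). FACT missed the threshold when any of 3 arrays of root 1 was left out: elongation section 1 (adjusted p = 0.0578) and maturation sections 2 (0.0551) and 3 (0.0525). FACT also missed the threshold with no replicate block (adjusted p = 0.0992), with an offset of 1 (0.0632) and with the doubtful elongation section counted in root 2 (0.0559). Leaving out an elongation section brought the count of 3122 down to 1609 (section 1, root 1), 2000 (section 2, root 1) and 1982 (section 1, root 2).

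Against the elongation zone, 2 of 3 genes were higher in the maturation zone, AT1G74460 and AT2G23540, at log2 2.31 and 1.56 (adjusted p = 0.0166 and 0.0257), where 0.827% of all probe sets were called higher and 0.211% lower. FACT was at 0.66 ± 0.162 SE (adjusted p = 0.188). The call for AT1G74460 was lost without maturation section 3 of root 1 (adjusted p = 0.0938), after quantile normalization (0.0506) and when all 24 arrays were fitted singly (0.0698). That for AT2G23540 did not survive the loss of any of 5 arrays. These were, in root 1, elongation section 1 (0.0544) and maturation sections 2 (0.0793) and 3 (0.0658), and in root 2, elongation section 1 (0.101) and maturation section 4 (log2 1.01, 0.425). It was also lost with no replicate block (0.113), after quantile normalization (0.0915), with an offset of 1 (0.0566) and with all arrays fitted singly (0.375). These zone means join sections where the GDSL-type genes had not yet risen with sections where they had.

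Between the elongation and the meristematic zone 0 of 3 genes were called by limma. In this comparison 2.39% of all probe sets were called higher and 5.13% lower. AT1G74460 was at 0.999-fold (SE 0.125 on the log2 scale). The log2 difference was 0.21 ± 0.162 for FACT and 0.37 ± 0.144 for AT2G23540, whose unadjusted limma p of 0.0502 was the lowest of the 3. The sign for AT1G74460 turned in 8 of the 24 runs with 1 array left out, with values from -0.086 to 0.083. HCT, a hydroxycinnamoyl transferase on the route to caffeoyl-CoA, which FACT uses, was the only measured gene of 9 listed for that route. Averaged over zones it was called higher in the elongation zone, by log2 2.11 ± 0.284 SE (adjusted p = 0.0259). The single step from meristematic section 6 to elongation section 1 was 2.06 ± 0.561 SE and was not called (limma adjusted p = 0.382). The zone comparison no longer passed when elongation section 1 of root 1 was left out (adjusted p = 0.111), with no replicate block (0.17) and with an offset of 1 (0.0703). HCT stood at -0.61 ± 0.397 between the younger and older maturation stretch (adjusted p = 1).

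None of the 6 measured cell type markers passed the test between the younger and older maturation stretch, and their part in the results above was not tested. EXPA7 and EXPA18, expansins of hair cells, stood at log2 -1.44 ± 0.392 SE (adjusted p = 0.177) and -1.62 ± 0.388 (adjusted p = 0.0956) between the younger and older stretch. GSO1, a receptor kinase needed for the endodermal barrier and the only listed endodermis gene with an annotated probe set of its own, stood at -1.35 ± 0.441 (adjusted p = 0.362). The pericycle genes LBD16 and LBD29 stood at 0.36 ± 0.159 and 0.11 ± 0.126 (adjusted p = 0.741 and 1), and the cortex gene AT1G62500 at 0.13 ± 0.246 (adjusted p = 1).

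In the 8 sorted lines every value of the 3 genes lay below that gene's lowest value in maturation sections 3 and 4; whole sections and sorted protoplasts also differ in preparation and age. AT1G74460 was highest in xylem pole pericycle at 0.931, followed by phloem pole pericycle at 0.831, companion cells at 0.763 and the mixed J2501 line at 0.729. Protophloem and metaphloem gave 0.717, hair cells 0.715, lateral root primordia 0.626 and meristematic xylem 0.467. The only line above its own array's median was xylem pole pericycle, where 57.0% of the probe sets were lower.

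AT2G23540 was highest in companion cells at 0.65 and then in J2501 at 0.625, xylem pole pericycle at 0.599 and phloem pole pericycle at 0.494. Lateral root primordia gave 0.449, protophloem and metaphloem 0.446, hair cells 0.36 and meristematic xylem 0.314. In the last 3 of these lines between 2.02% and 3.85% of the probe sets were lower, so the gene lay at the bottom of those arrays. FACT had the narrowest range, 0.759 in J2501, 0.679 in xylem pole pericycle, 0.662 in protophloem and metaphloem, 0.634 in hair cells, 0.605 in meristematic xylem, 0.557 in phloem pole pericycle, 0.551 in companion cells and 0.514 in lateral root primordia.

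The largest excess of the top line over the median of the other 7 was 1.45-fold for AT2G23540, 1.30-fold for AT1G74460 and 1.26-fold for FACT. None of the 3 reached 4-fold, which 9.29% of all probe sets did. With 1 set of values per line there is no spread to tell neighbours in these orders apart, and no test was made. The SD of log2 intensity was 0.879 for J2501, 0.997 for xylem pole pericycle and 1.26 to 1.53 for the other lines. By the share of probe sets below it on each array, AT2G23540 was at 37.3% in companion cells, 21.2% in lateral root primordia and 5.79% in J2501. FACT was then highest in meristematic xylem at 36.8%, with 30.1% in J2501, and AT1G74460 still in xylem pole pericycle. Meristematic xylem was the lowest line for AT1G74460 and AT2G23540 but not for FACT. As a check of the labels, EXPA7 was at 16.9 in hair cells and at 0.601 to 1.26 in the other lines. LBD16, a regulator of lateral root initiation, was at 6.23 in lateral root primordia and 5.87 in phloem pole pericycle. It was at 2.47 in companion cells, 1.93 in protophloem and metaphloem and 1.84 in xylem pole pericycle. In J2501, hair cells and meristematic xylem it was at 0.929 or lower. LBD16 thus did not set xylem pole pericycle and J2501 apart from lines without pericycle. LBD29, the other pericycle gene, ran only from 0.503 to 0.942 over the 8 lines. GSO1 ran from 0.592 to 0.993 over the 8 lines, and no listed phloem or xylem marker had an annotated probe set of its own.

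**Figure D4:**
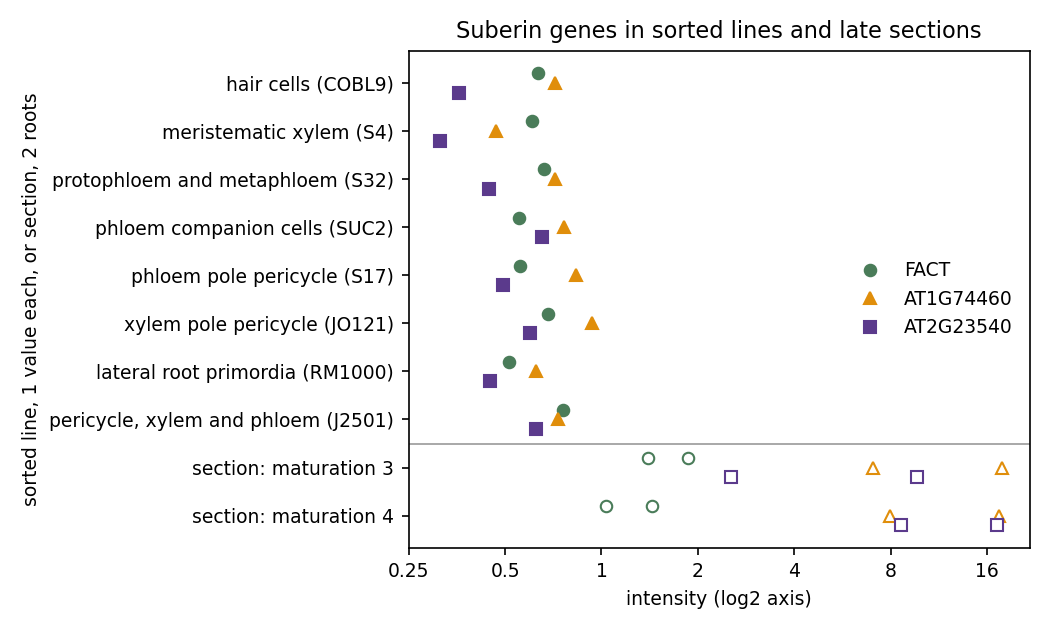
Deposited intensity (log2 axis) of the 3 genes in the 8 sorted lines, 1 set of values each (filled), and below the line in maturation sections 3 and 4 of both roots (open). All 24 filled points lie under 1, from 0.314 to 0.931, whereas AT1G74460 and AT2G23540 reach 2.54 to 17.8 in the sections.

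Across the 12 positions AT1G74460 and AT2G23540 had the most alike profiles of the 3 genes. The Pearson correlation of log2 intensity between AT1G74460 and AT2G23540 was 0.965 in root 1 and 0.911 in root 2. Ranked by the smaller of the values in the 2 roots, AT2G23540 was number 16 among 13512 other single-gene probe sets for AT1G74460, where FACT was number 196. For AT2G23540, AT1G74460 was number 11 and FACT number 235. Ranked for FACT, AT1G74460 was number 531 and AT2G23540 number 877, both behind HCT at number 421. The likeness of AT1G74460 and AT2G23540 rested on maturation sections 3 and 4. Over the remaining 10 positions their correlation was 0.303 in root 1 and -0.0117 in root 2. FACT correlated with AT1G74460 at 0.702 and 0.821 over 12 positions and at 0.904 and 0.881 over the 10 younger ones, the highest values among the 3 pairs over those positions. Among those 10 positions both genes were highest in maturation section 2 in both roots. The correlation without that section was not computed. With AT2G23540, FACT correlated at 0.591 and 0.583, and at 0.429 and -0.0423 over the 10 younger positions. AT5G37690 correlated with AT2G23540 at 0.798 and 0.931. These are descriptions over sections of the same roots, which share arrays.

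The genes whose profiles were most like each of the 3 were named by that smaller correlation. For AT1G74460 they were AT1G14120 (0.971), ARPN, a plantacyanin gene (0.958), AT4G39720 (0.957), AT4G26790 (0.953) and AT5G38020 (0.951). For AT2G23540 they were AT4G23670 (0.973), AT2G35380 (0.971), AT2G16005 (0.961), AT4G26790 (0.944) and AT1G14120 (0.941), so AT1G14120 and AT4G26790 stood in both lists. For FACT they were AT1G22890 (0.973), the matrix metalloproteinase gene MMP (0.970), AT5G44390 (0.962), AT1G54540 (0.961) and AT2G37750 (0.960), none of them shared with the other lists. The median of that measure over all single-gene probe sets was -0.227 for AT1G74460, -0.159 for AT2G23540 and -0.226 for FACT.

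The roots differed in detail. Taken position by position, the median absolute difference between the roots was log2 0.16 for FACT, 0.39 for AT1G74460 and 0.44 for AT2G23540. For AT1G74460 and AT2G23540 the difference was widest at maturation section 3, where root 1 was higher by 1.33 and 1.94. It turned at maturation section 4, where root 1 minus root 2 was -1.13 and -1.0. By intensity, root 1 had for both genes come close to, or passed, its peak in section 3, while root 2 peaked in section 4. By the share of probe sets lower on the same array, AT2G23540 went from 97.7% in section 3 to 99.2% in section 4 of root 1. In root 2 it went from 86.6% to 98.6%. AT1G74460 was at 99.2% and 99.1% in those sections of root 1, and at 96.0% and 98.6% in root 2. The spread of the arrays differed there too, with an SD of log2 intensity over all probe sets of 1.05 and 0.639 in sections 3 and 4 of root 1 and 1.10 and 1.33 in root 2. The part of that spread in the difference was not tested, and the roots cannot be told apart from the separate naming series of their arrays.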

How the data were processed

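The values were used as deposited: the authors gave 1 linear intensity for each probe set and array. How these were background-corrected, summarised and scaled is not given in the sources used here. Per the labels' protocols, RNA was amplified in 2 cycles before hybridisation. Intensities were converted to log2 with no offset or filter. Probe sets were named through the platform annotation, which gave 1 gene to 13513, several to 503 and none to 8730; 13436 matched a TAIR10.1 locus. With a filter (above 1 in at least 2 section arrays) all 3 genes stayed in, through the sections where they are high.

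For zone comparisons the log2 values of a zone were averaged within each root, and zone and root were fitted to these 6 values with limma 3.58.1 under R 4.3.3 (2 residual and 3.06 prior degrees of freedom). For positions, stretches and steps it fitted position and root to the 24 arrays (11 residual degrees of freedom), which treats sections of 1 root as independent beyond a root effect. Tests were two-sided, with Benjamini-Hochberg adjustment over all 22746 probe sets and a threshold of 0.05. The paired design rests on sections of the same root; root differences at 1 position correlated with those at another (median r 0.477 over 66 pairs, range -0.233 to 0.834). The fits were tested on simulated data. The members, lists and settings were chosen with earlier results of these data known. Named genes are the members, the measured genes of the lists, up to 2 passing members of other lists, and the 5 probe sets most like each member; marker values beyond that were chosen after they were seen. A planned GDSL family list by annotation had 9 genes, none given a single-gene probe set by the platform annotation, and the planned promoter motif search was not run.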

Additional observations from a re-analysis of the deposited data

Results flagged for a closer look

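The columella section, the outermost tip of root 1, enters none of the comparisons, and 2 of the 3 genes stood out on its array. AT1G74460 was at 1.7 and AT2G23540 at 1.66 there, against 0.466 to 0.871 and 0.382 to 0.812 in the 12 meristematic arrays. On that array 99.5% of the probe sets were lower than each of these genes, whose ranks from the top were 113 and 123. AT5G37690 was at 1.58, above the 99.4% of probe sets below it, while FACT was at 0.949, with 19.1% below it, and HCT at 1.06. The array is a single one with no second root, and its values hardly varied (SD of log2 intensity 0.137), so neither a test nor a fold against other sections was made.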

How the results depend on the processing

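The rises of AT1G74460 and AT2G23540 between the younger and older maturation stretch, and the variation of all 3 genes over positions, kept their direction and their side of the threshold under every alternative that gave a test, as did maturation against meristematic for AT1G74460. Other zone comparisons and steps changed as follows, and those of the 3 genes not named here kept their side and direction. With no replicate block, the unpaired fit, the maturation zone against the meristematic zone stayed at log2 0.865 for FACT and against the elongation zone at 1.557 for AT2G23540, both past the threshold no longer, and the step from maturation section 2 to 3 at 2.761 for AT1G74460 and 3.194 for AT2G23540, also lost. After quantile normalization, maturation against elongation gave 2.415 for AT1G74460 and 1.669 for AT2G23540, both lost, the step from section 2 to 3 turned to -0.008 for FACT, and AT5G37690 turned to -0.090 between elongation and meristematic zone. An offset of 1 before log2 gave 1.129 for AT2G23540 (maturation against elongation), 0.432 for FACT (maturation against meristematic) and 1.976 for AT2G23540 (step from section 2 to 3), all lost. Fitting all 24 arrays singly lost maturation against elongation for AT1G74460 (2.310) and AT2G23540 (1.557) and added FACT (0.657), as did a trended prior variance (0.657). With the doubtful elongation section counted in root 2, FACT lost maturation against meristematic (0.865) and AT5G37690 turned to -0.042.

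Counts of probe sets called moved more. Maturation against elongation gave 236, and 79 with no replicate block, 69 after quantile normalization, 57 with the offset, 359 with a filter on low values, 654 with the trended variance and 526 with all arrays fitted singly. Maturation against meristematic gave 3122, and 730 with no replicate block, 1742 with the offset, 1776 with the section counted in root 2 and 6284 with all arrays fitted singly. Elongation against meristematic gave 1710, and 193 with no replicate block, 1018 after quantile normalization, 785 with the offset and 716 with the section counted in root 2. The older against the younger stretch gave 125, and 79 with no replicate block, 372 after quantile normalization and 285 with the trended variance. Variation over positions gave 4378, and 2442 with no replicate block. Quantile normalization also moved the split: 65 of 69 were higher in maturation against elongation (188 of 236 before), 459 of 1018 in elongation against meristematic (543 of 1710) and 208 of 372 between the stretches (94 of 125).

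Leaving out 1 array or 1 root (the latter with no test) gave ranges of 1.915 to 2.718 for AT1G74460 and 1.006 to 1.923 for AT2G23540 in maturation against elongation, and of 0.594 to 1.135 for FACT and 1.374 to 2.290 for AT2G23540 in maturation against meristematic. AT1G74460 ranged from -0.090 to 0.087 in elongation against meristematic. AT5G37690 ranged from -0.115 to 0.130 there. The step from section 1 to 2 ranged from -0.655 to 0.047 for AT2G23540. That from section 2 to 3 ranged from -0.202 to 0.320 for FACT, 2.198 to 3.323 for AT1G74460 and 2.342 to 4.045 for AT2G23540, and that from section 3 to 4 from -0.711 to 0.848 for AT1G74460. The counts ranged from 46 to 472, 1609 to 3771 and 564 to 2031 in the zone comparisons, 48 to 317 between the stretches and 2570 to 5122 over positions. The steps and the results on AT5G37690 and HCT were added after seeing the data. The cause of these changes was not tested. No detection call or background level was used here, so how far values near or below the array median lie above background was not tested.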
